A study of Homo sapiens with 24 samples.

Results

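The 9 genes described here encode proteins that cut, bind or build the matrix around cells, or that mark invasive cells: MMP1, MMP10, F2R, PLAU, PLAUR, COL4A1, COL4A2, FN1 and VIM. They are 9 of the 19775 genes that the arrays measured with a probe set annotated to 1 gene. Their levels on all 24 arrays were read by the arrays' labels and by the levels of TACC3 and ARMCX3 on the same arrays. MMP1, F2R and COL4A2 were chosen because they varied widely over the arrays, so that spread is no finding.

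RT112 is an established human bladder cancer cell line that is known to carry a fusion of FGFR3, a receptor tyrosine kinase, with TACC3, a spindle protein gene. All cells carried a hairpin RNA (shRNA) switched on by doxycycline. It was aimed at EGFP, a fluorescent protein gene that human cells lack, in the control line, and at FGFR3 in the 3 lines called 2-4, 4-1 and 6-16. Each line was kept 48 h in medium with 1% serum, without doxycycline or with it at 1 µg/ml, which gives 8 labelled groups of 3 arrays. The series was designed to find genes that depend on FGFR3. Nothing in the labels says whether a line is 1 clone or whether replicates came from separate cultures, so p-values measure the spread between these arrays only. Values are normalized log2 levels, on which a difference of 1 is a 2-fold difference.

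Invading carcinoma cells have to pass the basement membrane, a sheet built on a network of type IV collagen, and then the interstitial collagen beneath it. Secreted matrix metalloproteinases cut these fibres, and the plasminogen activators release plasmin, which cuts fibronectin and activates metalloproteinase precursors. Receptors on the cell surface gather these enzymes or are cut by them. In bladder cancer, high levels of such enzymes are commonly tied to muscle-invasive disease.

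RefSeq places all 9 genes on GRCh38.p14, and some of them lie close together. MMP10, at chr11:102770502-102780628, lies near MMP1, at chr11:102789919-102798160, in a cluster of metalloproteinase genes. COL4A1, at chr13:110148963-110307157, and COL4A2, at chr13:110307284-110513209, run in opposite directions from a shared stretch of 126 bases. The others are F2R at chr5:76716126-76735770, PLAU at chr10:73908832-73917494, PLAUR at chr19:43646095-43670169, FN1 at chr2:215360865-215436068 and VIM at chr10:17228241-17237593. The RefSeq promoter table held upstream windows for 7 of the 9 genes. It held none for MMP1 or F2R, so their upstream stretches were not searched.

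The stretches before the starts of MMP10 and PLAUR are shown because they alone among the windows read held TGANTCA. This is a loose form, with any base at N, of the site that AP-1 factors are known to bind. A match need not be such a site. The COL4A1 and COL4A2 stretch is shown because those genes share it, and its part in their levels was not tested. Each is written 5′ to 3′, on the gene's own strand for MMP10 (chr11:102780629-102780878, minus) and PLAUR (chr19:43670170-43670419, minus) and on the plus strand for the stretch between the collagen genes (chr13:110307158-110307283). Capitals mark the TGANTCA match in the MMP10 and PLAUR windows and CCAAT in the collagen stretch.
MMP10: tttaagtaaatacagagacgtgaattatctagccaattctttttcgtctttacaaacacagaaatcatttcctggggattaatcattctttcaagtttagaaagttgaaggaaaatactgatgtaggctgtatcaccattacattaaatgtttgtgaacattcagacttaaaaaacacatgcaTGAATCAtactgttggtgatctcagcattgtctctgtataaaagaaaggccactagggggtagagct
PLAUR: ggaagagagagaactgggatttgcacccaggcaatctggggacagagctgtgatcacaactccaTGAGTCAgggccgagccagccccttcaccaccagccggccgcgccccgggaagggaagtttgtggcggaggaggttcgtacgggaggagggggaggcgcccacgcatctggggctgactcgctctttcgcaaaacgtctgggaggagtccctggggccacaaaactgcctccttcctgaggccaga
COL4A1 to COL4A2: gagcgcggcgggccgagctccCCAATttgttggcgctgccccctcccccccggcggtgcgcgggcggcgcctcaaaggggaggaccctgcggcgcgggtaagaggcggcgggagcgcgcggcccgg

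The match in MMP10 began 67 bases before the start site and the match in PLAUR 186 bases before it. Both strands were searched for TGANTCA, for AGGAAG (an ETS core), for GGGCGG (an Sp1 box) and for CCAAT. Over 35116 upstream windows of 250 bases, 6.57% held TGANTCA, 28.7% AGGAAG, 42.6% GGGCGG and 32% CCAAT. The PLAUR window also held AGGAAG 15 bases before the start. The collagen stretch was 80.2% G and C and held 1 GGGCGG and 1 CCAAT, which do not overlap. FN1, VIM and both PLAU windows held no TGANTCA, and such matches only describe the letters.

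The arrays were alike in scale, with medians from 6.98 to 7.08, and no pair of arrays was identical. The targeted gene did not follow the labels. FGFR3's dimmer probe set was at 8.71 to 9.88 on 9 arrays, at least 1 in every labelled group but the 6-16 arrays without doxycycline, and at 10.34 to 11.20 on the other 15. The brighter FGFR3 probe set overlapped between these 9 and 15 arrays when pooled, at 11.13 to 12.20 against 11.36 to 12.34. It is read within smaller sets of arrays below. TACC3 parted the same 9 arrays, at 10.49 to 11.43, from the same 15, at 11.82 to 12.62. Of the 9 arrays low in TACC3, 5 were labelled without and 4 with doxycycline, and 3 were labelled EGFP. The groups are therefore named by their labels only, and each direction by label rests on those labels. ARMCX3 parted 6 arrays, at 4.25 to 4.93, from 18, at 9.45 to 10.31. All of these 6 carried replicate number 2 except the 4-1 array without doxycycline, which had number 1. Arrays numbered 2 also lay among the 18, and the part of replicate number in differences by ARMCX3 was not tested. Of 15 urothelial markers most were bright in every array (EPCAM 12.73 to 13.05, UPK1B 12.28 to 13.57), but KRT20 (5.25 to 7.45) and UPK3A (6.96 to 7.43) were dim. The 8 leukocyte markers ran from TYROBP, at no more than 5.77, to CD3E at 8.20 to 8.60 and CD79A at 8.15 to 8.72, with PTPRC at 5.60 to 5.97.

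By label, none of the 9 genes passed the test for a change with doxycycline in any line. In the fit over all genes (limma, adjusted over 19775 genes, threshold 0.05), the share of genes called was 0% in the EGFP, 2-4, 4-1 and 6-16 lines, 0% for the mean FGFR3 line change against the EGFP line change, and 0% among the 8 groups. At an unadjusted p under 0.05 these comparisons held 505, 487, 223, 1539, 428 and 476 genes. VIM was the only one of the 9 among them, in the EGFP line, the 6-16 line and the comparison of the 8 groups.

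MMP1, the interstitial collagenase, shows how the labelled groups are made up. Without doxycycline, the 3 arrays labelled EGFP had MMP1 at 6.51, 9.40 and 4.35, and with it at 8.84, 8.68 and 6.12. Arrays labelled 2-4 stood at 8.77, 6.13 and 9.34 without and at 8.71, 5.23 and 9.26 with doxycycline. Low and high arrays thus shared a label in both lines, and the groups overlapped. The 4-1 arrays stood at 5.93, 6.38 and 9.41 without and at 5.42, 9.63 and 8.85 with doxycycline. In the 6-16 line the values were 9.55, 9.72 and 9.34 without and 8.72, 5.96 and 9.01 with it. This was the one line whose 2 groups did not overlap in MMP1, and its arrays without doxycycline were the one group with no array low in TACC3. The 6-16 change was -1.64 ± 1.40 (SE) on the log2 scale (limma, adjusted p = 0.791), and the others ran from -0.35 to 1.13. The mean FGFR3 line change minus the EGFP line change was -1.55 ± 1.61 (SE) (limma, adjusted p = 1.00), with a 95% confidence interval from -4.92 to 1.82.

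**Figure D1:**
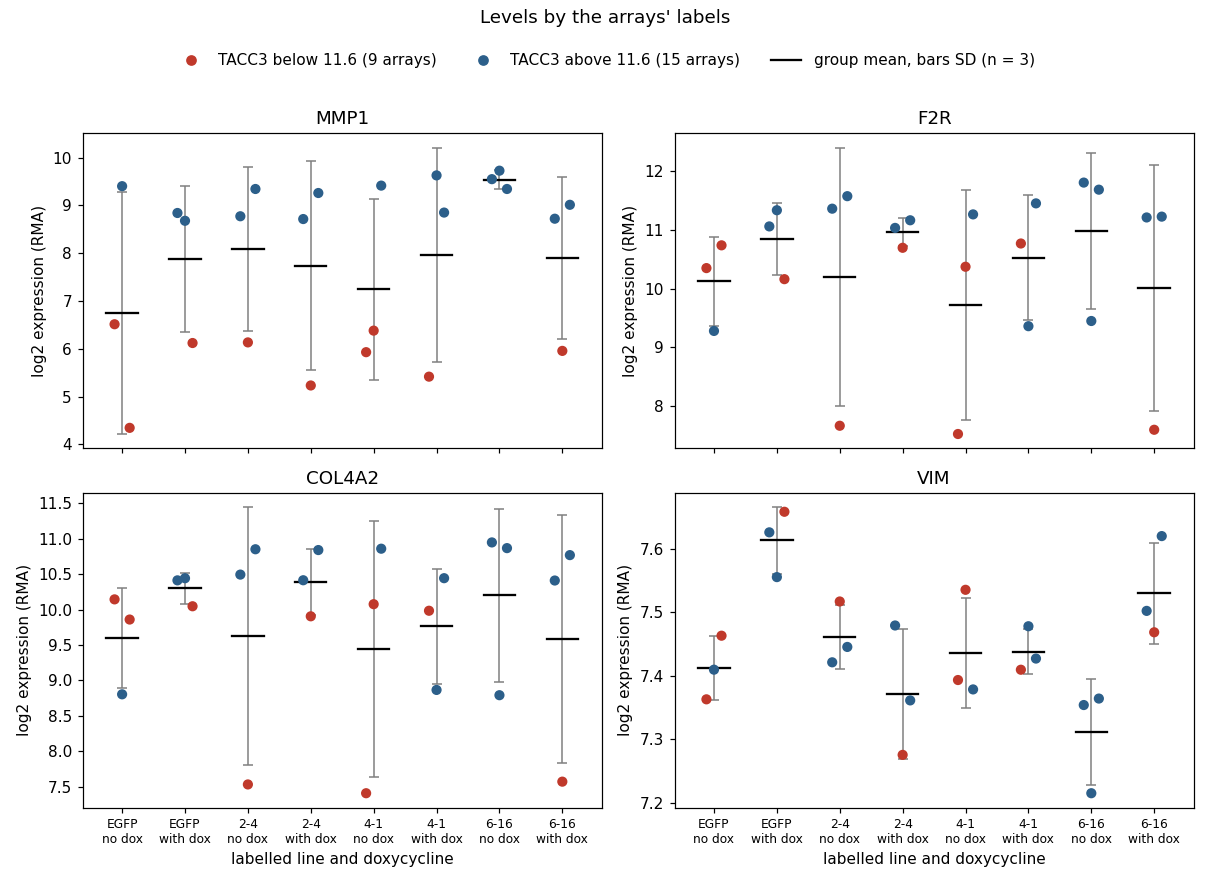
Log2 levels of MMP1, F2R, COL4A2 and VIM (vertical axes, a scale for each gene) in the 8 labelled groups, 1 point per array, coloured by the TACC3 set, with the mean and SD of each group (n = 3). MMP1 is at 6.51 or lower on every array with low TACC3, whatever its label.

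Between 69.2% and 10.3% of each gene's variance over the 24 arrays lay between the labelled groups, against a median of 26.4% over all genes. VIM, an intermediate filament of mesenchymal cells, held the highest share and COL4A2 the lowest. The share was 19.4% for MMP1, 13.0% for MMP10 and 12.4% for F2R. COL4A2 means ran from 9.45 ± 1.81 (SD, n = 3) in the 4-1 arrays without doxycycline to 10.39 ± 0.47 (SD, n = 3) in the 2-4 arrays with it, so the largest difference of means was smaller than the SD in the first of these groups.

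VIM was the gene whose label groups were tightest. It was at 7.36, 7.41 and 7.46 in the EGFP arrays without doxycycline and at 7.63, 7.56 and 7.66 with it. The change of 0.20 ± 0.066 (SE) missed the threshold (limma, adjusted p = 0.975). In the 6-16 line VIM was at 7.35, 7.22 and 7.36 without and 7.50, 7.47 and 7.62 with doxycycline, a change of 0.22 ± 0.066 (SE) (limma, adjusted p = 0.494). VIM did not overlap between the groups of either line, while in the 2-4 and 4-1 lines its groups did. With weights for array quality, the 6-16 change of VIM was called (limma, adjusted p = 0.035), in a fit that called 1291 genes in that line.

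Of the 36 comparisons of 1 gene in 1 line, 31 overlapped between groups. In the EGFP line COL4A1 and VIM were higher with doxycycline with no overlap, where 10.6% of all genes did not overlap in one direction or the other. In the 6-16 line MMP1 and PLAUR were lower and VIM higher, against 14.3% of all genes. None of the 9 was free of overlap in the 2-4 line (7.43% of all genes) or the 4-1 line (3.79%). Of the differences between the FGFR3 line and EGFP line changes, MMP10 stood at -0.78 ± 0.94 (SE), F2R at -0.53 ± 1.26 (SE) and COL4A2 at -0.55 ± 1.08 (SE). The other 5 genes lay between -0.49 and 0.14, and the adjusted p was 1.00 for all 9 genes (limma).

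Read by TACC3, the same levels fell into clear sets. These sets come from measured values and were used in choosing the 9 genes, so what follows is a description with no test, and the sets are not the study's groups. MMP1 was at 4.35, 5.96 and 6.51 (lowest, median, highest) on the 9 arrays with low TACC3 and at 8.68, 9.26 and 9.72 on the 15 others. The median difference was -3.30 on the log2 scale, or 9.86-fold lower. MMP10, a stromelysin that cuts matrix and activates collagenases, was at 6.58, 7.09 and 7.81 against 8.55, 8.71 and 9.71, with a median 3.07-fold lower. These were the 2 of the 9 genes that were lower with no overlap, against 3.09% of all genes, and none was higher with no overlap, against 2.9%.

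By the size of the median difference, 4 of the 9 genes were lower by over 0.5 (MMP1, MMP10, F2R and COL4A2), against 1.74% of all genes. PLAU was the 1 gene higher by over 0.5, against 2.42% of all genes. The arrays nearest the TACC3 divide, at 11.43 and 11.82, had MMP1 at 6.51 and 9.72. RNA ends differed along with these sets. The 3′ minus 5′ signal of GAPDH was 0.282 to 0.424 on the arrays with low TACC3 and 0.196 to 0.292 on the others, and that of ACTB was 0.788 to 1.17 against 0.702 to 0.968. Its part in the differences was not tested.

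ARMCX3 gave a different division of the genes. F2R, the thrombin receptor PAR1 that MMP1 is also known to cut, was at 7.52, 8.47 and 9.45 on the 6 arrays with low ARMCX3 and at 10.16, 11.19 and 11.81 on the 18 others. COL4A2, a chain of the basement membrane collagen, was at 7.41, 8.18 and 8.87 against 9.86, 10.43 and 10.95. COL4A1, its partner chain, was at 8.28, 9.04 and 9.87 against 10.001, 10.57 and 11.30. The second F2R probe set overlapped, at 8.52 to 8.66 against 8.61 to 9.06. By the probe sets used, these 3 genes were lower with no overlap, against 2.39% of all genes. PLAU, the urokinase that makes plasmin, went the other way, at 8.39, 8.59 and 8.67 against 6.41, 6.84 and 8.24. It was the 1 gene of the 9 higher with no overlap, against 2.14% of all genes, though its second probe set overlapped, at 7.56 to 7.95 against 6.44 to 7.57. The probe sets used for MMP1, MMP10, PLAUR, FN1 and VIM overlapped between the ARMCX3 sets, while 3 other FN1 probe sets were lower with low ARMCX3 with no overlap, by differences of -0.68, -0.83 and -0.70.

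The arrays fall further into 4 sets of 6, chosen with earlier results of these data in view. They are the 6 low in ARMCX3, 6 high in GAS1 (8.52 to 9.47, against 5.39 to 6.51 elsewhere), 6 low in the brighter FGFR3 probe set (11.13 to 11.43, against 11.83 to 12.34 elsewhere) and the remaining 6. Each of the first 3 sets held 3 arrays low and 3 arrays high in TACC3, and the remaining 6 were all high. The levels below are given for low against high TACC3 within each of these sets, 3 arrays against 3. The brighter FGFR3 probe set was itself lower with low TACC3 in each, with no overlap. It was at 11.83 to 11.96 against 12.19 to 12.22 in the ARMCX3-low set and 12.13 to 12.20 against 12.27 to 12.34 in the GAS1-high set. In the FGFR3-low set, which it defines, it was at 11.13 to 11.34 against 11.36 to 11.43. Over all genes, 6.67% were lower with no overlap in all 3 sets.

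MMP1 was low with TACC3 in all 3 sets. In the ARMCX3-low set it was at 5.93, 5.96 and 6.13 against 9.40, 9.63 and 9.72. The GAS1-high set had 6.12, 6.38 and 6.51 against 9.01, 9.26 and 9.41, and the FGFR3-low set 4.35, 5.23 and 5.42 against 9.34, 9.34 and 9.55. The differences of medians were 12.7-fold, 7.35-fold and 17.3-fold in that order. The remaining 6 arrays had 8.68 to 8.85, below all 9 of the other arrays with high TACC3.

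MMP10 took the same shape. Its levels were 6.76, 6.85 and 7.13 against 8.58, 8.70 and 8.71 in the ARMCX3-low set and 7.68, 7.79 and 7.81 against 9.21, 9.52 and 9.71 in the GAS1-high set. In the FGFR3-low set they were 6.58, 6.83 and 7.09 against 9.18, 9.26 and 9.40. The 3 triplets low in TACC3 lay below all 15 of the other arrays, and the GAS1-high triplet was the brightest of the 3.

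**Figure D2:**
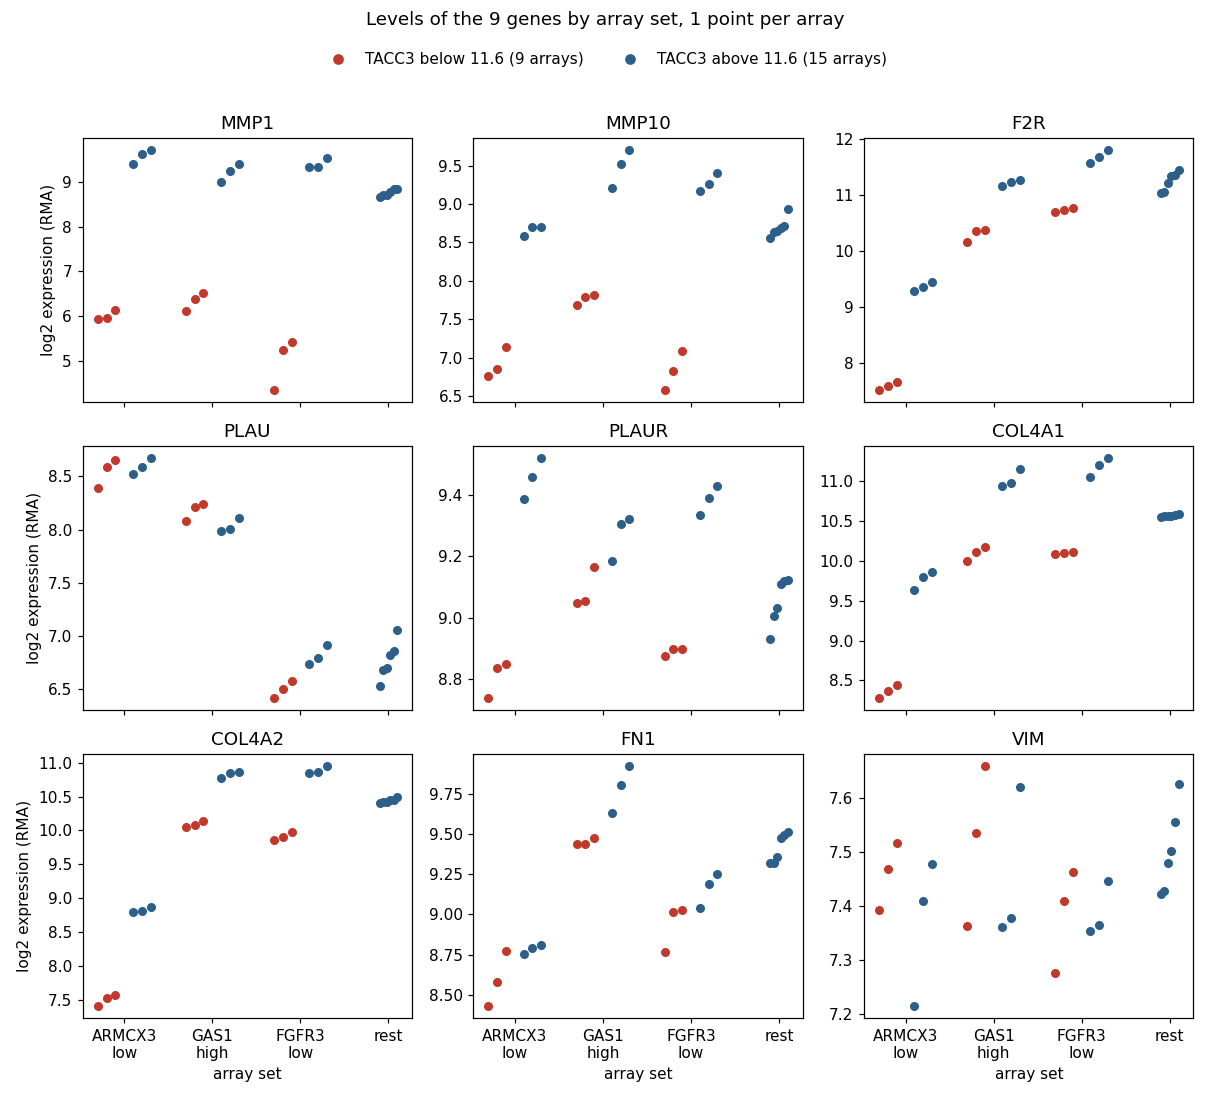
Log2 levels of the 9 genes (vertical axes, a scale for each gene) in the 4 sets of 6 arrays, 1 point per array, with red for low and blue for high TACC3. MMP1 and MMP10 part by TACC3 in the 3 sets that hold both colours (the rest is all blue), F2R, COL4A1 and COL4A2 also by ARMCX3, PLAU by set and VIM by none.

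By the probe sets used, both receptors were lower with low TACC3 in each set. The second F2R probe set overlapped in the ARMCX3-low set, with a difference of -0.037. F2R was at 7.52, 7.59 and 7.66 against 9.28, 9.36 and 9.45 in the ARMCX3-low set, at 10.16, 10.35 and 10.37 against 11.17, 11.23 and 11.27 in the GAS1-high set, and at 10.70, 10.74 and 10.77 against 11.58, 11.69 and 11.81 in the FGFR3-low set. The differences of medians were -1.77, -0.88 and -0.95. PLAUR, the urokinase receptor, had differences of -0.62, -0.25 and -0.49, and in the GAS1-high set its nearest arrays were at 9.17 and 9.18. The ranges of PLAUR over all 24 arrays, 8.74 to 9.52, and of F2R, 7.52 to 11.81, were unlike in width.

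PLAU followed the sets and not TACC3. On the 12 arrays of the ARMCX3-low and GAS1-high sets it was at 7.99 to 8.67, and on the 12 others at 6.41 to 7.05. Within the ARMCX3-low set it was at 8.39, 8.59 and 8.65 against 8.53, 8.59 and 8.67 by TACC3, a difference of medians of -0.0029. It was 0.21 higher in the GAS1-high set, with overlap, and there was a difference of -0.29 in the FGFR3-low set, without overlap. The pooled difference of 1.31 is therefore not found inside any of the sets.

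The collagen chains moved together. COL4A1 was at 8.28, 8.37 and 8.44 against 9.63, 9.80 and 9.87 in the ARMCX3-low set, at 10.001, 10.11 and 10.18 against 10.95, 10.99 and 11.15 in the GAS1-high set, and at 10.08, 10.11 and 10.11 against 11.06, 11.21 and 11.30 in the FGFR3-low set. The differences of medians were -1.43, -0.87 and -1.11 for COL4A1 and, in the same order, -1.27, -0.76 and -0.96 for COL4A2. On the remaining 6 arrays COL4A1 stayed within 10.55 to 10.59 and COL4A2 within 10.41 to 10.49. The triplet low in both TACC3 and ARMCX3 was the lowest of all for both chains.

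FN1, the fibronectin that links collagen to integrins, differed by -0.22 with overlap in the ARMCX3-low set and by -0.37 and -0.17 without overlap in the GAS1-high and FGFR3-low sets. Its highest levels, 9.63 to 9.92, were those of the GAS1-high arrays with high TACC3. VIM overlapped in all 3 sets, with differences from 0.045 to 0.16 over a whole range of 7.22 to 7.66. By the probe sets used, 6 of the 9 genes were lower with no overlap in all 3 sets, against 6.67% of all genes. These were MMP1, MMP10, F2R, PLAUR, COL4A1 and COL4A2. None of the 9 was higher in all 3, against 7.63%. The GAPDH 3′ minus 5′ signal was also higher with low TACC3 in each set with no overlap (0.367 to 0.424 against 0.260 to 0.289, 0.282 to 0.334 against 0.196 to 0.269, and 0.346 to 0.376 against 0.222 to 0.292), and its part was not tested. That of ACTB overlapped in the GAS1-high set.

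**Figure D3:**
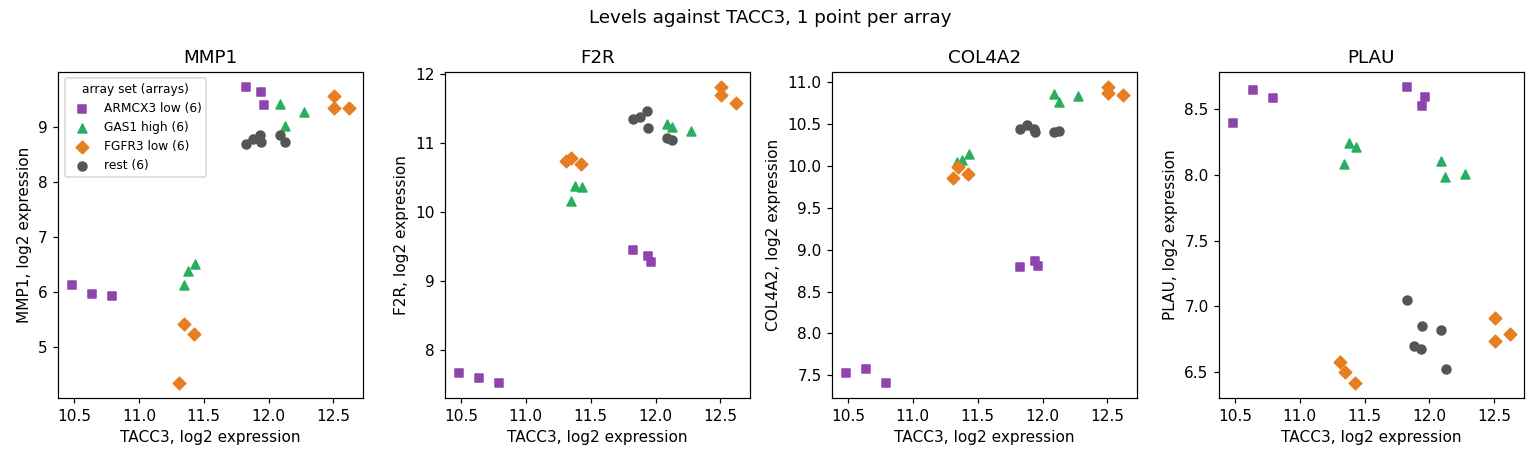
Log2 levels of MMP1, F2R, COL4A2 and PLAU (vertical axes) against that of TACC3 (horizontal axis), 1 point per array, with a symbol for each set of 6 arrays. MMP1 parts into a lower and an upper cloud, F2R and COL4A2 sit lower in the ARMCX3-low set at both TACC3 levels, and PLAU lies in bands by set.

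Other probe sets of the same genes were read alongside. The second COL4A1 and COL4A2 probe sets were lower with low ARMCX3 with no overlap, with differences of -0.996 and -1.60, and lower with low TACC3 in all 3 sets. The 2 further PLAUR probe sets were also lower in all 3 sets, and 1 of them parted all arrays by TACC3, at 7.58 to 7.96 against 7.996 to 8.45. The second F2R probe set moved far less, between 8.52 and 9.06, and overlapped both between the ARMCX3 sets and by TACC3 within the ARMCX3-low set. Of the other FN1 probe sets, 3 resembled the one used and were lower by TACC3 with no overlap in every set, whereas 3 stayed within narrow ranges of low signal. PLAU's second probe set was 0.36 higher by TACC3 over all arrays and overlapped in each set. VIM's second probe set lay at 3.87 to 4.27.

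The genes with the most similar pattern were sought by Pearson's r over the 24 arrays among 1721 genes with a range above 1. For MMP1 they were LRP8 (r = 0.98), S100A9 (r = 0.98) and PSMD14 (r = 0.97). F2R was most like COL4A2 (r = 0.98), PEG10 (r = 0.98) and C16orf54 (r = 0.97), and COL4A2 most like PEG10, F2R and C16orf54 (r = 0.98 each). Among the 9 genes, MMP1 and MMP10 had r = 0.93, COL4A1 and COL4A2 r = 0.97, and MMP1 and PLAU r = 0.011. The arrays cluster in triplets, so these values describe the pattern and the points are not independent.

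Related genes were taken from lists by role, of which 191 of 202 genes were measured. No gene of these lists was called by label. The counts below are of genes lower or higher with low TACC3 in all 3 sets with no overlap, which over all genes were 6.67% lower and 7.63% higher, and they carry no test. Among 20 other metalloproteinases (MMP, ADAM and ADAMTS genes), 3 were lower (15%, against 6.67% of all genes) and none was higher (against 7.63%), and the median difference over all arrays was -0.06 against -0.01 for all genes. The 3 were MMP13, MMP28 and MMP2, which are named after their values were seen. MMP3, a stromelysin as MMP10 is, stayed at 3.98 to 4.51. MMP7, or matrilysin, lay at 5.98 to 6.37, and MMP14, which sits in the membrane, at 10.15 to 10.59. All of these last genes overlapped.

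Inhibitors and activators did not move as one. TIMP2, an inhibitor of metalloproteinases, was at 11.34 to 11.83 on arrays with low TACC3 and at 10.30 to 11.13 on the others, and was higher in all 3 sets. TIMP3 was 0.55 higher by median and TIMP1 0.021 higher. Of 14 inhibitors 1 was lower (7.14%, near the 6.67% of all genes) and 3 were higher (21.4%, against 7.63%). PLAT, the tissue plasminogen activator, was at 10.22 to 10.94 against 11.86 to 12.79, a difference of medians of -1.66. Its direction was that of MMP1 and its sets did not overlap, unlike those of PLAU. Of 17 genes of the plasminogen and thrombin system 3 were lower (17.6%, against 6.67% of all genes) and 2 higher (11.8%, against 7.63%). F3, the tissue factor, and F2RL2, a thrombin receptor akin to F2R, overlapped, with median differences of 0.18 and 0.007.

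**Figure D4:**
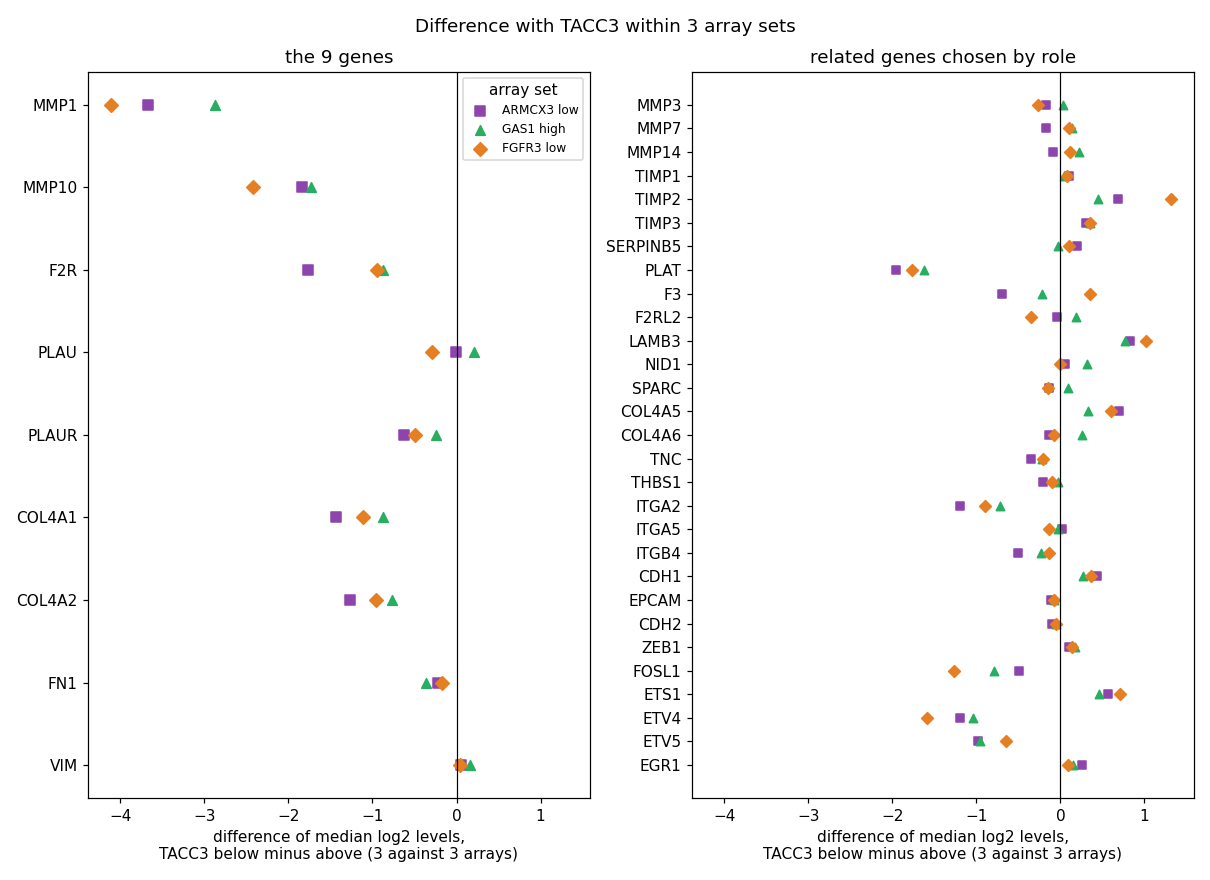
Difference of median log2 level between arrays with low and high TACC3 (horizontal axis) for the 9 genes (left) and related genes chosen by role (right), 1 symbol for each of 3 sets of 6 arrays. Of the 9 genes, MMP1, MMP10, F2R, PLAUR, COL4A1, COL4A2 and FN1 lie left of 0 in each set. VIM lies slightly right of it in each, and PLAU on both sides. Among the related genes, examples are PLAT and ITGA2 on the left and TIMP2, LAMB3 and COL4A5 on the right.

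Some other genes of the basement membrane were higher where COL4A1 and COL4A2 were lower. Of 17 measured besides those, none was lower (against 6.67% of all genes) and 8 were higher (47.1%, against 7.63%), while the other 9 were neither. LAMB3, a chain of the laminin of epithelial anchoring, was 0.83, 0.77 and 1.02 higher in the ARMCX3-low, GAS1-high and FGFR3-low sets. COL4A5, another type IV collagen chain, was 0.70, 0.33 and 0.60 higher, and COL4A6 overlapped. COL4A4, named after its values were seen, was at 9.02 to 9.98 against 6.59 to 8.71, a median 2.08 higher. NID1 and SPARC differed by -0.02 and -0.14. In the interstitial matrix list 2 of 21 genes were lower (9.52%, near the 6.67% of all genes) and 5 higher (23.8%, against 7.63%), while TNC and THBS1 differed by -0.18 and -0.09, with overlap.

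Over all arrays, the median difference of the basement membrane list was 0.28, against -0.01 over all genes. It was 0.04 for the inhibitors, -0.01 for the interstitial matrix and -0.07 for the integrins.

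Among 14 integrins and matrix receptors 5 were lower (35.7%, against 6.67% of all genes) and 3 higher (21.4%, against 7.63%). ITGA2, a collagen receptor chain, was at 10.26 to 11.12 against 11.24 to 11.89, a difference of medians of -0.69, and ITGA5, the fibronectin receptor chain, overlapped. ITGB4, a hemidesmosome chain, was lower in the 3 sets, with differences of -0.51, -0.23 and -0.14. CDH1, the epithelial cadherin, was at 12.76 to 13.07 against 12.46 to 12.65, higher with low TACC3. Of 15 epithelial junction genes 3 were higher (20%, against 7.63% of all genes) and none lower (against 6.67%). Of 14 genes of the mesenchymal state 1 was lower and 1 higher (7.14% each, near the 6.67% and 7.63% of all genes). The lower one was S100A4, named after its values were seen, with differences of -0.48, -0.48 and -0.49 in the sets. The higher one was ZEB1, by 0.10 to 0.17. It was dim and overlapped over all arrays, at 6.08 to 6.29 against 5.92 to 6.29. CDH2 overlapped at 7.12 to 7.41.

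Of 16 AP-1 and ETS factor genes 4 were lower (25%, against 6.67% of all genes) and 2 higher (12.5%, against 7.63%). FOSL1, an AP-1 subunit, was at 6.76 to 7.23 against 7.59 to 8.36. FOSL2, another AP-1 subunit, named after its values were seen, went the other way, at 9.89 to 10.54 against 9.51 to 9.83. The PEA3 family members ETV4 and ETV5, which are known to follow receptor tyrosine kinase signalling, were at 8.45 to 8.93 against 9.60 to 10.15 and at 7.89 to 8.91 against 9.03 to 9.76. ETS1 was 0.57 higher with no overlap, and EGR1 differed by 0.12. Most markers of other cell types moved little by TACC3: 0 of 10 endothelial and 0 of 8 leukocyte genes were lower or higher in all 3 sets. Of 10 fibroblast genes 1 was higher (10%, against 7.63% of all genes). It was LUM, named after its values were seen, which was bright on every array, at 13.26 to 13.56 against 12.84 to 13.36. CDH5, an endothelial marker also named after its values were seen, differed by -0.95 in the GAS1-high set. Mean levels were 7.26 to 7.40 against 7.28 to 7.43 for the endothelial list and 6.55 to 6.82 against 6.55 to 6.82 for the leukocyte list. For the fibroblast list they were 7.63 to 7.77 against 7.61 to 7.77. Of 15 urothelial markers 2 were lower (13.3%, against 6.67% of all genes) and 7 higher (46.7%, against 7.63%).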

How the data were processed

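The deposited values are RMA log2 levels of 54675 Affymetrix probe sets on 24 arrays, and per the submitters' processing notes RMA and the affy package were used; versions and background settings are not given in the sources used here. RMA makes the arrays' distributions alike and narrows differences of low signals. Of the probe sets, 41097 carried 1 gene symbol, 1801 several and 11777 none; each of 19775 genes was read from its probe set with the highest mean. Groups came from the labels. limma 3.58.1 in R 4.3.3 fitted 8 group means with 1 spread (16 residual degrees of freedom), Benjamini-Hochberg adjusted over all genes. The fit was also run on simulated data with independent noise and no array sets, which cannot show how it fares on arrays that cluster. The array sets by TACC3 (11.6), ARMCX3 (7), GAS1 and FGFR3 (widest gap) received no test. The text names the 9 genes, genes fixed by role and the 3 genes most like MMP1, F2R and COL4A2. Genes and lists were chosen with earlier results of these data known. Some genes of the lists are not reported here. Alternatives covered probe set choice, array centring, a filter on levels under 6, array weights, the replicate block and left-out arrays. The number of arrays limits the precision.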

Additional observations from a re-analysis of the deposited data

How the results depend on the processing

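Adjusted calls by label stayed at 0 under probe set choice, array centring, the filter on low levels and each left-out array (0 to 0). In the 6-16 line 1 gene was called with the replicate block and 1291 with array weights, and among the 8 groups 1 with array weights; the cause was not tested. Same-numbered arrays of 84 pairs correlated from -0.73 to 0.88 (median 0.13, 43 over 0.1). Differently numbered pairs were not set beside them, so this cannot tell whether the numbers pair the arrays. The ARMCX3-low arrays all carried number 2 except the 4-1 array without doxycycline, and most GAS1-high arrays carried number 3. The difference between FGFR3 line and EGFP line changes kept its sign for 7 of the 9 genes. For PLAUR it turned to -0.064 with the mean of all probe sets, -0.017 with the probe set of largest SD and -0.0092 with array weights, and for PLAU to -0.19 with array weights. Over the left-out arrays it ran from -0.14 to 0.14 for PLAUR and from -0.25 to 0.75 for PLAU; all of these missed the threshold. Leaving out 1 array, it ran from -2.87 to -0.34 for MMP1, from -0.95 to -0.11 for F2R and from -0.89 to -0.15 for COL4A2. The PLAU difference by TACC3 was -0.0029 in the ARMCX3-low, 0.21 in the GAS1-high and -0.29 in the FGFR3-low arrays. For VIM it was -0.092 with the mean of its probe sets and 0.16 in the GAS1-high arrays. The within-set values for the GAS1 and FGFR3 sets were chosen after seeing the data. Signals near background, such as MMP3 and the low MMP1 arrays, bound how small a level can be read, so such differences may be understated.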
